A study of Mus musculus with 6 samples.

Results

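Expression of the nuclear genes of oxidative phosphorylation was described in single cells of mouse Achilles tendon before and after tenotomy. The genes were chosen by symbol alone: those beginning with Nduf, Uqcr, Cox4i, Cox5, Cox6, Cox7, Cox8 or Atp5, together with Sdha, Sdhb, Sdhc, Sdhd and Cycs. This gave 98 of the 33696 genes in the count tables, of which 90 had a mean of at least 5 CPM (UMIs of the gene per 1000000 UMIs) over the libraries. The 8 below that level were Ndufb4b, Cox6a2, Cox8b, Cox7a1, Cox7b2, Cox8c, Cox5b-ps and Ndufb11b. By gene lists of known roles, 46 of the 98 belong to complex I (7 core subunits, 31 accessory subunits and 8 assembly factors), 4 to complex II, 8 to complex III, 20 to complex IV and 17 to complex V. Cycs is cytochrome c, and Cox5b-ps and Ndufb11b had no role listed. The name therefore holds for nearly all members, but the Ndufaf genes are assembly factors and Cox7a2l, which links complexes III and IV, is no catalytic part of either. Ndufa4 carries the name of complex I and is a subunit of complex IV.

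All mice carried Gli1-CreERT2 and the Ai9 reporter and were given tamoxifen, which in the methods of the study ended 1 week before tenotomy. The reporter therefore marks cells in which the Gli1 promoter was active at the time of tamoxifen and their descendants, not present Gli1 transcript. Tendons were taken without injury, or at 7 or 21 days post injury (dpi) in the heterotopic ossification model, in which the tendon is clamped and then cut. Per the labels there were 8 mice at each time, 24 mice in all, from which Gli1+ and Gli1- cells were sorted. Each of the 6 conditions was 1 library of 3′ single-cell RNA-seq, with no map from cells to mice, and how many of the mice a library holds is not given. No test between conditions was run for this reason, and the 95% intervals below cover counting error only.

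Oxidative phosphorylation makes most of the ATP of a resting cell. Complexes I and II feed electrons from NADH and succinate into the inner mitochondrial membrane, complex III hands them to cytochrome c, and complex IV passes them to oxygen. The protons that are pumped on the way drive complex V, the ATP synthase. Apart from a small set encoded by mitochondrial DNA, the subunits are nuclear genes, many of them short and expressed in every cell type. A few subunits of complex IV have a second gene used in muscle, in smooth muscle and lung, or under low oxygen. Tendon is poorly vascularised, and its resident fibroblasts are known for a low rate of respiration.

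Promoters of respiratory genes often hold sites for NRF1, for CREB or ATF factors and for ETS factors, and some of the members named below hold such letters. A window of 300 bases (250 before and 50 after the annotated start) was present for 79 of the 98 members in the RefSeq table of build GRCm38.p6. The NRF1 core GCATGCGC, read on both strands, was in the windows of 13 of the 79 members (16.5%), of 3.05% of 27025 genes with a window, and of 5.97% of the 8895 among these that passed the CPM minimum. The cAMP response element TGACGTCA, which is its own reverse complement, was in 5 members (6.33%), in 2.03% of all genes and in 3.65% of the expressed ones. The ETS core CCGGAAG was in 19 members (24.1%), in 9.93% of all genes and in 20.1% of the expressed ones. The estrogen-related receptor site TCAAGGTCA was in 2 members, Atp5g3 and Sdhd (2.53%), and in 0.466% of all genes. The 13 members with the NRF1 core were Atp5g2, Atp5k, Atp5l, Cox6a1, Cycs, Ndufa11, Ndufa6, Ndufa8, Ndufaf4, Ndufaf5, Sdhb, Uqcr11 and Uqcrc1. They include members that were higher after injury and members that were lower or near 0, described below. Cox5a, Ndufa4, Atp5g1 and Atp5o, among the members highest over uninjured tendon, had a window and none of these sequences.

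The windows of 4 members with the NRF1 core are printed here because they show that contrast: Cycs (chr6:50566520-50566819, minus strand), Ndufa8 (chr2:36049289-36049588, minus strand) and Ndufa11 (chr17:56717512-56717811, plus strand) were higher after injury, and Ndufa6 (chr15:82354242-82354541, minus strand) was lower at 7 dpi. Each reads 5′ to 3′ along the gene, and the capitals mark matches to the NRF1 core or the cAMP response element. In Cycs the cAMP response element begins 169 and the NRF1 core 60 bases before the start. In Ndufa11 the cAMP response element begins 158 bases before it, and 2 overlapping NRF1 matches begin 60 and 58 bases before it. The NRF1 core begins 8 bases before the start of Ndufa8 and 83 before that of Ndufa6.
Cycs: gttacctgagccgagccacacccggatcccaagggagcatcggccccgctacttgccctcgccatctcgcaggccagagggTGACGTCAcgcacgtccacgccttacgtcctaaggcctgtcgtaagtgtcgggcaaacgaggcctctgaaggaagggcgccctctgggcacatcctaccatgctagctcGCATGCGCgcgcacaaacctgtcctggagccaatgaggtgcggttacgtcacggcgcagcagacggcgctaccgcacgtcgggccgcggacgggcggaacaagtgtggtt
Ndufa8: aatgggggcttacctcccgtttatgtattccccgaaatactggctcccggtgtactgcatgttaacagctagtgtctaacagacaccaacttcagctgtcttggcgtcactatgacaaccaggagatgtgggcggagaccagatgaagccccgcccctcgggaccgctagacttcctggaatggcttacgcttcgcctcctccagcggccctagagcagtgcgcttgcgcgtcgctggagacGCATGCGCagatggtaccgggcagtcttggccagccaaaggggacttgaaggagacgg
Ndufa11: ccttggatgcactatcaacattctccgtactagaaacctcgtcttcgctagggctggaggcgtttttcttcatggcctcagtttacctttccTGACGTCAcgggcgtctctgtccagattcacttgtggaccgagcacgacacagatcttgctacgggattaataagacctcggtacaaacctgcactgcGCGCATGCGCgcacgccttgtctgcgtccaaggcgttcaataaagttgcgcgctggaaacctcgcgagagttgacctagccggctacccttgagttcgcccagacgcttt
Ndufa6: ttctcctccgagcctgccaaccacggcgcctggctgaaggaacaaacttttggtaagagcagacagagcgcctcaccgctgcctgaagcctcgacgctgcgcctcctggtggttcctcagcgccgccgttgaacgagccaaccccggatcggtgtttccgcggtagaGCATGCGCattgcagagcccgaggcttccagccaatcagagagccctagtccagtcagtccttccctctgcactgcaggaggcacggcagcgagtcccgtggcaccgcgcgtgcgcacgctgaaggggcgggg

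Of 84194 deposited barcodes, 65670 had at most 5% of their UMIs from mitochondrial DNA and were kept, 7677 to 12810 in a library, with 63564110 to 123302462 UMIs. The median depth was 7892 to 9773 UMIs per cell in 5 libraries and 4318 in the Gli1- uninjured library. Markers named 54.9% of the Gli1+ uninjured cells immune-like (4214 of 7677), against at most 31 such cells in any other library. The labels give equal numbers of each sex in every group. Xist, which is expressed from the inactive X chromosome of females, was at 423 to 676 CPM in the Gli1+ uninjured library and in both libraries of 21 dpi, and at 0.0193 to 0.0487 CPM in the other 3. Y-linked genes summed to 57.7, 180 and 2.501 CPM (Gli1+) and to 253, 174 and 1.82 CPM (Gli1-). The libraries therefore do not match the labels on sex, and the sorts of uninjured tendon do not hold the same mix of mice. Of the 4 comparisons over uninjured tendon, Gli1- 7 dpi did not cross the Xist split, with Y-linked genes at 253 and 174 CPM. Gli1+ 21 dpi did not cross it either but differed in Y-linked level, at 57.7 and 2.501 CPM, and the other 2 crossed the split. Cntn5 followed the same split, at 0.368 to 2.26 CPM in the libraries with Xist and 169 to 646 CPM in the others. In Gli1- uninjured and 7 dpi tendon it was at 646 and 208 CPM. The part of sex in the results was not tested. Of 90 members, 3 (Cox5b, Cox6c and Ndufa1) were higher by over 0.3 on the log2 scale in mesenchymal-like cells of the library with Xist in 3 comparisons that cross the split (between the sorts without injury, and between 7 and 21 dpi of each sort), and 1 (Ndufs4) was lower by as much. Over all genes these shares were 8.12% and 6.52%. Over uninjured tendon, 2 comparisons cross the split as well. Cox5b, Cox6c and Ndufa1 had log2 ratios of 0.02, 0.06 and -0.29 in Gli1+ cells at 7 dpi, which lack Xist. In Gli1- cells at 21 dpi, which hold it, the ratios were 0.90, 1.11 and 0.68. Injury and the split both change in these 2 comparisons and cannot be told apart. Library pairs shared 0.328 to 0.534% of their barcodes.

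Members made up a larger share of the transcripts in every library of injured tendon than in either library of uninjured tendon. Over all barcodes, their summed share of UMIs in Gli1+ cells was 1.16% without injury, 1.65% at 7 dpi and 1.62% by 21 dpi. In Gli1- cells it was 1.12%, 1.47% and 1.53%. The medians over single cells, at 1.04, 1.60 and 1.45% in Gli1+ cells and 1.06, 1.38 and 1.39% in Gli1- cells, had the same lowest libraries. On the log2 scale the share differed from that without injury by 0.51 at 7 dpi and 0.48 at 21 dpi (Gli1+), and by 0.39 and 0.44 (Gli1-). With all barcodes counted, 41 and 34 of 90 members were higher by more than 0.58 on the log2 scale in Gli1+ cells, where 23.2 and 20.5% of the 11311 genes tested were, and 0 were lower, where 30.8 and 30.5% of all genes were. In Gli1- cells 20 and 23 members were higher, where 18.9 and 16.4% of all genes were, and 2 and 0 lower, where 28.6 and 24.5% of all genes were. The log2 fold of 0.58 is the fold threshold in the methods of the study and stands in for a test. The libraries differed in cell makeup, and the comparison was repeated within types.

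**Figure D1:**
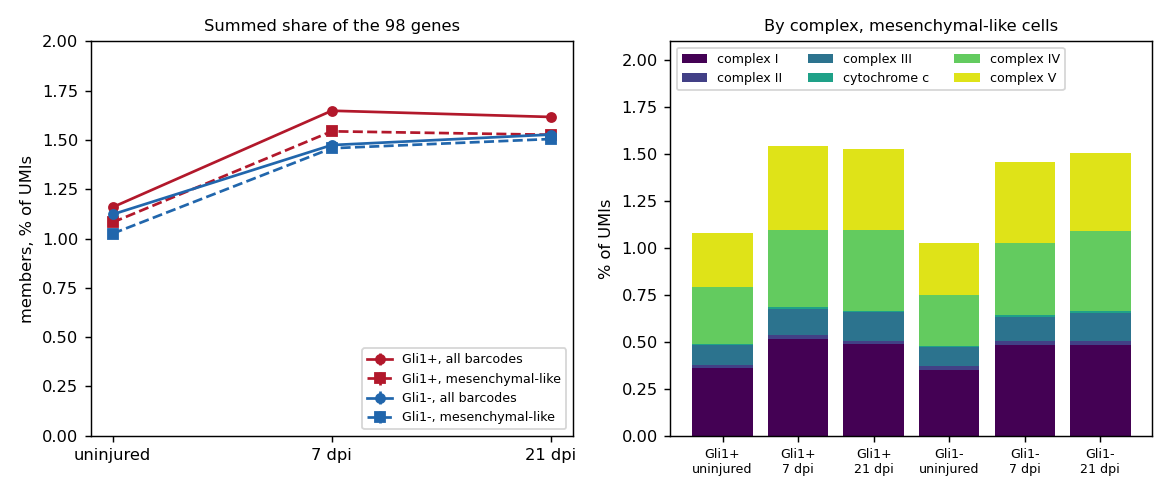
Left, summed share of UMIs (%) held by the 98 genes in each library, over all barcodes (circles, solid lines) and over mesenchymal-like cells (squares, dashed lines), with 95% counting intervals smaller than the points; right, stacked bars of the same share in mesenchymal-like cells (%) split by complex. Uninjured tendon is lowest in both sorts, at 1.08 and 1.03% in mesenchymal-like cells, and the 4 injured libraries lie between 1.46 and 1.54%.

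Mesenchymal-like cells, the cells of the 17 of 40 clusters with fibroblast markers such as Pdgfra, Col1a1 and Dcn, numbered 2534, 7297 and 8714 (Gli1+) and 6101, 8692 and 8092 (Gli1-). Members took 1.08% of their UMIs in Gli1+ tendon before injury, 1.54% at 7 dpi and 1.53% by 21 dpi. In the Gli1- sort the shares were 1.03, 1.46 and 1.505%. The log2 ratio was 0.51 (interval 0.507 to 0.519) and 0.50 (0.491 to 0.503) in Gli1+ cells at 7 and 21 dpi, and 0.51 (0.503 to 0.513) and 0.55 (0.549 to 0.559) in Gli1- cells. The 2 comparisons that do not cross the Xist split gave 0.50 and 0.51. Median depth in these cells was 8436, 9481 and 8980 UMIs (Gli1+) and 5793, 11806 and 9076 UMIs (Gli1-), so the lowest depth went with the lowest share, and within 5000 to 15000 UMIs per cell the log2 ratios were 0.54, 0.47, 0.53 and 0.55.

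Past the fold upward were 38 of 90 members in Gli1+ mesenchymal-like cells at 7 dpi, where 20.5% of all genes were, and 26 at 21 dpi, where 13.6% were. In Gli1- cells 32 members were at 7 dpi, where 21.9% of all genes were, and 36 at 21 dpi, where 18.8% were. The counts at 21 dpi, here and on the scales below, include Cox4i2 in both sorts, which passed the minimum of 5 CPM only through mural-like cells. Downward, the counts were 2, 1, 1 and 0 members in the same order, where 29.6, 30.4, 23.4 and 23.9% of all genes were past the fold. The median log2 ratio of members was 0.48, 0.43, 0.47 and 0.49, and that of all genes tested -0.14, -0.25, -0.04 and -0.09. In all 4 comparisons together, 72 of 90 members (80%) were above 0, against 27.1% of all genes, and 15 (16.7%) were past the fold upward, against 8.88% of all genes. Genes that span at most 20 kb, as most members do, had shares of 41.4% and 13.8% in these counts. These counts share their uninjured library within a sort.

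The members are short genes, and in these libraries the difference over uninjured tendon went with the length of a gene. The median span of members was 7206 bases, against 27279 for all genes tested, and 83 of the 98 spanned at most 20 kb in GENCODE M21, in which 97 of 98 were found. Among mesenchymal-like cells, genes of at most 20 kb had median log2 ratios of 0.17, 0.08, 0.22 and 0.14 over uninjured tendon in the order above, and genes over 100 kb had -0.51, -0.60, -0.37 and -0.37. Genes over 100 kb took 17.0% of the UMIs in both uninjured libraries and 12.4 to 13.5% in the injured ones. Members of at most 20 kb had medians of 0.49, 0.46, 0.53 and 0.54. Per UMIs of genes of at most 20 kb instead of all genes, the summed log2 ratio was 0.35, 0.33, 0.39 and 0.42 and stayed above 0. On that scale 54 of 90 members were above 0 in all 4 comparisons, against 20.2% of all genes, and 21, 10, 17 and 18 were past the fold, where 16.1, 9.48, 18.0 and 14.98% of all genes were. The background here is all genes, long ones included, and genes of at most 20 kb were not counted apart on that scale. Downward on that scale were 2, 1, 1 and 1 members, where 36.6, 40.7, 29.5 and 31.9% of all genes were. On that scale the count past the fold was close to the background in Gli1+ cells at 21 dpi and Gli1- cells at 7 dpi. Every log2 ratio of mesenchymal-like cells is shifted by the scale, by -0.16, -0.18, -0.13 and -0.16 per UMIs of genes of at most 20 kb and by 0.30, 0.46, 0.11 and 0.19 under TMM, a scaling by a trimmed mean of the log ratios between libraries. Under TMM, 61, 78, 46 and 54 members were past the fold upward, where 30.7, 31.4, 25.7 and 25.7% of all genes were. The part of gene length, and of the nuclear RNAs Malat1 and Neat1, in these differences was not tested. Malat1 and Neat1 together held 2.79, 1.40 and 2.06% of the UMIs in Gli1+ mesenchymal-like cells, and 1.74, 1.14 and 1.95% in Gli1- ones.

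**Figure D2:**
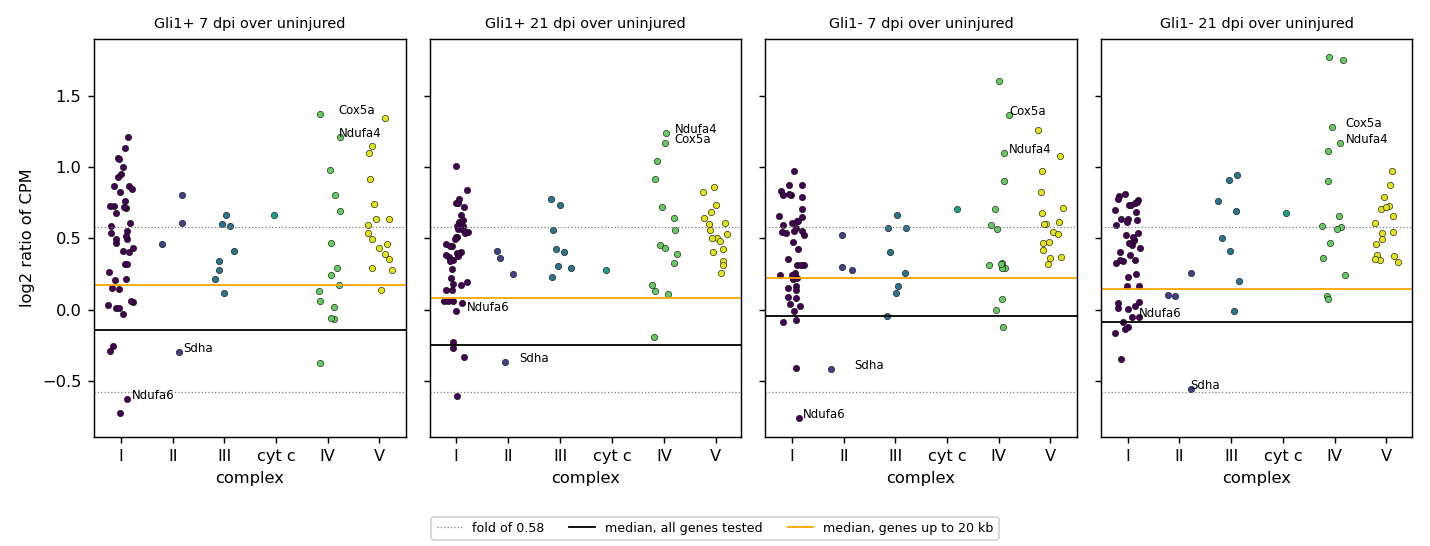
Log2 ratio of CPM over uninjured tendon for each of the 90 members in mesenchymal-like cells, by complex, for the 4 comparisons; the dotted lines are the fold of 0.58, the black line is the median of all genes tested and the orange line that of genes of at most 20 kb. Most members lie above both medians, with Cox5a and Ndufa4 near the top and Sdha below 0 in each panel.

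The groups differed less by complex than by gene, with complex II as the exception. In Gli1+ mesenchymal-like cells at 7 and 21 dpi and then in Gli1- cells at 7 and 21 dpi, the summed log2 ratios were 0.51, 0.43, 0.46 and 0.45 for complex I. They were 0.40, 0.53, 0.33 and 0.61 for complex III and 0.45, 0.52, 0.53 and 0.66 for complex IV. Complex V gave the highest summed value of the 5 complexes at 7 dpi in both sorts, with 0.62, 0.56, 0.63 and 0.58. Complex II gave 0.37, 0.14, 0.12 and -0.05, and its last 3 values change sign with one or the other of the 2 scalings above. The 13 subunits encoded by mitochondrial DNA, which are counted by the same libraries, gave 0.12, 0.30, 0.29 and 0.35 as a sum. The limit of 5% mitochondrial UMIs per barcode caps this quantity itself, and it kept 93.2, 73.2 and 75.5% of the barcodes (Gli1+) and 79.5, 76.2 and 76.8% (Gli1-). At the level of single genes 3, 8, 7 and 9 of the 13 were above 0, and their median was -0.42, 0.16, 0.12 and 0.22, so sum and median differed in sign in Gli1+ cells at 7 dpi.

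Complex I is the largest complex and takes electrons from NADH. Past the fold upward were 19, 11, 15 and 15 of its 45 members tested, where 20.5, 13.6, 21.9 and 18.8% of all genes were. Of the 7 core subunits, which carry the flavin and the iron-sulfur clusters, 4, 2, 2 and 2 were past it, and of 30 accessory subunits 15, 9, 13 and 13. None of the 8 assembly factors was past it in any of the 4 comparisons in mesenchymal-like cells. Ndufaf5 stood at 6.62, 8.26 and 6.84 CPM (Gli1+) and 7.40, 7.85 and 6.80 CPM (Gli1-) (uninjured, 7 and 21 dpi, as in all series below). Ndufaf6 and Ndufaf7, assembly factors as well, were at 7.62 to 11.3 and 13.3 to 16.1 CPM.

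Ndufb5, an accessory subunit of the membrane arm, was at 99.7, 231 and 178 CPM (Gli1+) and 107, 196 and 180 CPM (Gli1-) in mesenchymal-like cells. Both injured libraries of each sort were above the uninjured one, by 1.21, 0.84, 0.87 and 0.75 on the log2 scale. Ndufa8, an accessory subunit of the intermembrane space, was at 71.5, 149 and 144 CPM and at 82.9, 163 and 135 CPM. Its log2 ratios were 1.06, 1.01, 0.97 and 0.70, and with mesenchymal-like cells included it was higher at 7 dpi in each of the 4 Gli1+ and 5 Gli1- types with values at both times. Ndufa11, which lies at the membrane arm, was at 102, 186 and 156 CPM and at 97.1, 169 and 165 CPM. Ndufs8, a core subunit with iron-sulfur clusters, was at 33.8, 74.0 and 57.9 CPM and at 36.3, 63.3 and 55.5 CPM. Ndufa13 and Ndufb9, both among the 3 subunits of complex I with the highest mean CPM, were at 238 to 241 and 177 to 194 CPM in uninjured tendon and at 314 to 353 and 275 to 321 CPM after injury. In each of these genes the 4 injured libraries lay above the 2 uninjured ones.

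A few complex I members went the other way. Ndufa6 (chr15:82350140-82354322 in mm10), an accessory subunit of the LYR family, was at 188, 122 and 187 CPM (Gli1+) and 199, 117 and 192 CPM (Gli1-) in mesenchymal-like cells. It was thus lower at 7 dpi alone, by log2 ratios of -0.62 and -0.76, and at -0.01 and -0.05 at 21 dpi, where TMM scaling turned it to 0.45 and 0.14. Under TMM scaling the values at 7 dpi were -0.33 and -0.65, so that of Gli1+ cells was no longer past the fold. At 7 dpi it was also below 0 in every other type with values, which makes 4 of 4 types in the Gli1+ and 5 of 5 in the Gli1- sort. Ndufb4 was at 34.4, 20.8 and 22.6 CPM and at 24.8, 18.7 and 23.9 CPM, with log2 ratios of -0.72, -0.60, -0.41 and -0.05. Under TMM scaling these were -0.43, -0.14, -0.30 and 0.13, none of them past the fold. It has a copy, Ndufb4b, which was at 1.39 to 4.53 CPM, so how reads were split between the pair is uncertain. Ndufs1, the largest core subunit, was at 31.3, 26.2 and 24.8 CPM and at 27.2, 25.7 and 24.3 CPM, below 0 in all 4 comparisons but above 0 in all 4 under TMM scaling. Ndufs4 was at 71.0, 104 and 78.1 CPM and at 97.2, 100 and 76.3 CPM, and Ndufa1, on the X chromosome, at 101, 82.4 and 114 CPM and at 65.1, 76.0 and 105 CPM. In both genes the 3 libraries with Xist lay on 1 side of the 3 without. Ndufa2 was at 182 to 212 CPM in uninjured tendon, at 234 and 226 CPM at 7 dpi and at 301 and 302 CPM at 21 dpi.

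Complex II, succinate dehydrogenase, belongs to the tricarboxylic acid cycle as well as to the respiratory chain. Sdha (chr13:74322254-74350280 in mm10), its flavoprotein and catalytic subunit, was lower in all 4 injured libraries of mesenchymal-like cells, at 61.9, 50.5 and 48.0 CPM (Gli1+) and 74.7, 56.1 and 50.8 CPM (Gli1-). The log2 ratios were -0.30, -0.37, -0.41 and -0.56, none past the fold, and under TMM scaling those of Gli1+ cells were 0.0025 and 0.10. Per UMIs of genes of at most 20 kb all 4 stayed below 0, and that of Gli1- cells at 21 dpi was past the fold. The other subunits did not share this order. Sdhb, the iron-sulfur subunit, was at 59.2, 89.98 and 70.6 CPM and at 64.8, 78.3 and 69.4 CPM, highest at 7 dpi in both sorts. Sdhc and Sdhd, the membrane anchors, were at 42.3, 58.3 and 56.3 and at 27.0, 47.1 and 34.7 CPM in Gli1+ cells. In Gli1- cells they were at 47.3, 58.2 and 56.5 and at 30.03, 43.1 and 32.0 CPM. In the Gli1+ sort at 7 dpi, 2 of the 4 subunits were past the fold upward, where 20.5% of all genes were, and 0 were in the other 3 comparisons.

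Complex III moves electrons from ubiquinol to cytochrome c, and 3, 2, 1 and 4 of its 8 members were past the fold upward in mesenchymal-like cells, where 20.5, 13.6, 21.9 and 18.8% of all genes were. The count of 1 in Gli1- cells at 7 dpi was under that background. Uqcr10, a small subunit, was past it in all 4 comparisons, at 134, 202 and 222 CPM (Gli1+) and 116, 184 and 223 CPM (Gli1-). Uqcrq was at 142, 224 and 242 CPM and at 135, 200 and 254 CPM. Uqcrh, the hinge subunit, was at 346, 438 and 509 CPM and at 356, 398 and 505 CPM. In all 3 the 21 dpi libraries were the highest of each sort. Cycs, the electron carrier between complexes III and IV, was at 62.2, 98.4 and 75.3 CPM and at 50.7, 82.7 and 81.0 CPM. Its log2 ratios of 0.66, 0.27, 0.71 and 0.68 left only Gli1+ cells at 21 dpi inside the fold.

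Complex IV, cytochrome c oxidase, held the member with the highest ratio in each of the 4 comparisons of mesenchymal-like cells. This was Cox5a in Gli1+ cells at 7 dpi, Ndufa4 in Gli1+ cells at 21 dpi and Ndufa4l2, described below, in Gli1- cells at both times. Cox5a (chr9:57521274-57532426 in mm10), a subunit of the matrix side, was at 105, 272 and 237 CPM (Gli1+) and 97.2, 250 and 235 CPM (Gli1-) in mesenchymal-like cells. All 4 injured libraries were far above both uninjured ones, with log2 ratios of 1.37 (interval 1.31 to 1.43), 1.17, 1.36 and 1.28. Outside mesenchymal-like cells it was higher at 7 dpi than in uninjured tendon in every type with values, for example at 117 and 271 CPM in Gli1+ mural-like cells and at 162 and 408 CPM in Gli1- lymphatic endothelial-like cells. Ndufa4 (chr6:11900292-11907497) was at 176, 407 and 415 CPM and at 191, 408 and 428 CPM, with log2 ratios of 1.21, 1.24, 1.10 and 1.16. Cox6b1, an intermembrane space subunit, was at 180, 353 and 296 CPM and at 184, 343 and 290 CPM.

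Several other subunits of complex IV were nearer to their uninjured level. Cox4i1, the common form of subunit 4, was at 542, 750 and 744 CPM (Gli1+) and 502, 625 and 754 CPM (Gli1-) in mesenchymal-like cells. Cox8a was at 393, 464 and 442 CPM and at 391, 487 and 462 CPM, and Cox7a2 at 194, 237 and 254 CPM and at 188, 235 and 260 CPM. In these 3 genes both injured libraries of each sort lay above the uninjured one. Cox6a1 stood at 128, 123 and 112 CPM and at 118, 117 and 126 CPM, with log2 ratios between -0.19 and 0.10. Cox7a2l was at 225, 246 and 246 CPM and at 259, 238 and 273 CPM. Neither Cox6a1 nor Cox7a2l kept 1 direction over all 4 comparisons in CPM. Under TMM scaling Cox6a1 was above 0 in all 4, and per UMIs of genes of at most 20 kb both genes were below 0 in all 4. Cox6c was at 366, 381 and 571 CPM and at 253, 374 and 547 CPM, with log2 ratios of 0.06, 0.64, 0.56 and 1.11. Cox5b was at 148, 149 and 218 CPM and at 100, 151 and 187 CPM. Cox6c and Cox5b were among the 3 members higher with Xist in the 3 comparisons named above, and the part of sex was not tested. Cox5b-ps, a copy of Cox5b, was at 1.55 to 4.70 CPM, and reads of the pair may be split.

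Complex V, the ATP synthase, had every one of its 17 members above 0 in all 4 comparisons of mesenchymal-like cells, except Atp5mpl at -0.03 in Gli1+ cells at 7 dpi per UMIs of genes of at most 20 kb. Past the fold upward were 8, 7, 9 and 8, where 20.5, 13.6, 21.9 and 18.8% of all genes were. Atp5o, which joins the catalytic head to the stator, was at 113, 286 and 187 CPM (Gli1+) and 127, 268 and 200 CPM (Gli1-). It was highest at 7 dpi in both sorts, with log2 ratios of 1.34 and 1.08, and at 0.73 and 0.65 at 21 dpi. Atp5d, the delta subunit of the central stalk, was at 162, 347 and 286 CPM and at 174, 341 and 287 CPM. Atp5h, of the peripheral stalk, was at 253, 423 and 354 CPM and at 257, 355 and 325 CPM. Both had all 4 injured libraries above both uninjured ones. Atp5e, the epsilon subunit, was at 279, 393 and 436 CPM and at 212, 377 and 415 CPM, and Atp5l, a membrane subunit, at 318, 417 and 512 CPM and at 310, 398 and 511 CPM. Atp5o, Atp5d and Atp5h were highest at 7 dpi, and Atp5e and Atp5l at 21 dpi.

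The 15 members past the fold upward in all 4 comparisons were Cox5a, Ndufa4, Ndufa4l2, Atp5g1, Atp5o, Atp5d, Ndufa8, Ndufb5, Ndufs8, Cox6b1, Ndufs6, Ndufa12, Ndufa11, Ndufc1 and Uqcr10. Of these, Atp5d, Ndufs8, Cox6b1, Ndufs6, Ndufa12, Ndufa11 and Ndufc1 were named after their values were seen. On the scale of genes of at most 20 kb, 4 members were past the fold in all 4, where 6.36% of all genes were, and the members' share was therefore under the background. Under TMM scaling 35 were, where 14.98% of all genes were.

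The c ring of the ATP synthase turns as protons pass and is built from 1 protein made by 3 genes, which differ in their import sequence. Atp5g1 (chr11:96068852-96075670 in mm10) was at 115, 255 and 209 CPM (Gli1+) and 116, 276 and 189 CPM (Gli1-) in mesenchymal-like cells, with log2 ratios of 1.14, 0.86, 1.26 and 0.71. Atp5g2 was at 217, 277 and 331 CPM and at 205, 313 and 296 CPM, and Atp5g3 at 91.2, 172 and 138 CPM and at 96.5, 158 and 125 CPM. Of the UMIs of the 3 genes, Atp5g1 held 27.2, 36.2 and 30.8% (Gli1+) and 27.8, 37.0 and 30.9% (Gli1-). Atp5g2 held 51.3, 39.4 and 48.8% and 49.1, 41.8 and 48.6%. The mix was thus nearest to equal parts at 7 dpi in both sorts, and at 21 dpi it lay between the mixes of 7 dpi and uninjured tendon for Atp5g1 and Atp5g2. In mural-like cells the share of Atp5g1 was 22.3, 30.02 and 29.1% (Gli1+) and 25.7, 31.9 and 29.1% (Gli1-). In both types the share of Atp5g1 was lowest in uninjured tendon in each sort.

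Complex IV genes with a second form differed widely between cell types. Ndufa4l2 (chr10:127514967-127517154 in mm10), a paralogue of Ndufa4 known as a target of hypoxia-inducible factor, held 89.8% (87.1 to 92.1) of the UMIs of the pair in Gli1+ mural-like cells without injury, 62.7% at 7 dpi and 67.7% by 21 dpi. In Gli1- mural-like cells it held 77.0, 68.0 and 69.6%, in mesenchymal-like cells 37.4, 31.1 and 32.4% (Gli1+) and 19.9, 26.1 and 27.5% (Gli1-), and in blood endothelial-like cells 8.53 to 17.0%. Mural-like cells had the highest share in each of the 6 libraries. In mesenchymal-like cells the level of Ndufa4l2 was 105, 184 and 199 CPM (Gli1+) and 47.5, 144 and 162 CPM (Gli1-), and the log2 ratios were 0.80, 0.91, 1.60 and 1.77. In mural-like cells as a whole the level was lower after injury, at 694, 469 and 470 CPM (Gli1+) and 629, 508 and 467 CPM (Gli1-). These cells came from 3 clusters, 11 (Rgs5, Higd1b and Ednrb), 19 (Abcc9 and Kcnj8) and 23 (Myh11, Pln and Lmod1), whose mix differed between times. Clusters 11, 19 and 23 held 40, 59 and 29 cells without injury, 127, 58 and 47 at 7 dpi and 618, 12 and 90 by 21 dpi in the Gli1+ sort, and 69, 513 and 283, then 340, 166 and 155, then 1007, 110 and 198 in the Gli1- sort. Within the Gli1- sort the level of Ndufa4l2 was not lower after injury in any of them, with 291, 505 and 453 CPM (cluster 11), 1040, 1064 and 1107 CPM (cluster 19) and 323, 411 and 514 CPM (cluster 23). Its share of the pair there was 71.5, 71.4 and 69.0%, then 92.0, 89.7 and 85.9%, then 52.7, 52.8 and 70.6%. In the Gli1+ sort cluster 19 alone had at least 50 cells without injury and after it, and Ndufa4l2 was there at 1357 CPM without injury and 669 CPM at 7 dpi. The level of Ndufa4l2 in mesenchymal-like cells of uninjured tendon differed between the sorts by a log2 ratio of 1.15 (1.06 to 1.24) and at 7 and 21 dpi by less than the fold of 0.58.

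Cox4i2 (chr2:152754173-152765037), the lung and smooth muscle form of subunit 4, held 30.1% of the UMIs of Cox4i1 and Cox4i2 in Gli1+ mural-like cells without injury, 14.97% at 7 dpi and 14.1% by 21 dpi. In Gli1- mural-like cells the share was 20.9, 15.8 and 13.1%. The level of Cox4i2 there was 211, 154 and 135 CPM (Gli1+) and 185, 152 and 131 CPM (Gli1-), so the lower share came with a lower level in both sorts over the 3 clusters as a whole. Within clusters of the Gli1- sort the level was 59.5, 170.1 and 129 CPM in cluster 11, 319.5, 347 and 319.2 CPM in cluster 19 and 86.96, 66.0 and 128 CPM in cluster 23, so that no cluster was lower at both times. In cluster 19 of the Gli1+ sort it was 474 CPM without injury and 172 CPM at 7 dpi. In mesenchymal-like cells the share was 0.296 to 1.26% and the level 2.23 to 9.63 CPM, and in blood endothelial-like cells the share was at most 2.86%. Cox4i2 passed the minimum mean of 5 CPM only through mural-like cells. In mesenchymal-like cells it was past the fold between 7 and 21 dpi in both sorts, at 2.23 and 5.96 CPM in Gli1+ and at 3.02 and 9.63 CPM in Gli1- cells. Mural-like cells made up 1.67, 2.25 and 6.65% of the Gli1+ barcodes and 6.75, 5.79 and 10.4% of the Gli1- barcodes. The part of their RNA in these low levels was not tested.

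The 52 skeletal muscle-like barcodes of the Gli1+ uninjured library, at a median of 1002 UMIs, held the muscle forms. Cox6a2 took 98.9% of the UMIs of Cox6a1 and Cox6a2 (453 of 458), Cox8b 79.5% of those of Cox8a and Cox8b (163 of 205) and Cox7a1 37.6% of those of Cox7a1 and Cox7a2 (80 of 213). Atp5g1 took 64.9% of the c ring UMIs (355 of 547), against 27.2% in mesenchymal-like cells of that library. Members made up 8.32% (8.16 to 8.47) of the UMIs of these barcodes, and 84 of 90 were past the fold over mesenchymal-like cells, where 17.8% of all genes were.

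**Figure D3:**
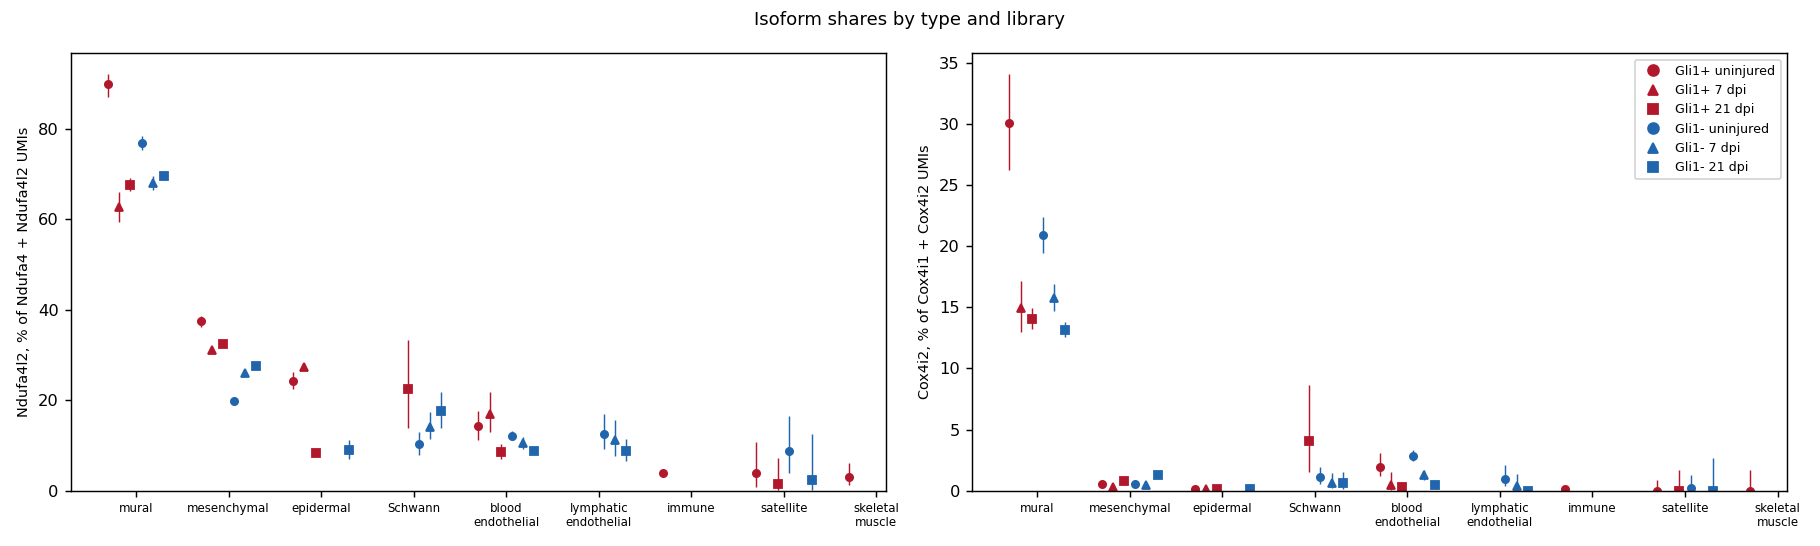
Share of UMIs (%) held by Ndufa4l2 within the pair Ndufa4 and Ndufa4l2 (left) and by Cox4i2 within the pair Cox4i1 and Cox4i2 (right), by marker-defined type (x axis) and library (colour for the sort, symbol for the time), with exact 95% binomial intervals. Mural-like cells lie highest in both panels, from 62.7 to 89.8% and from 13.1 to 30.1%.

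Mesenchymal-like cells of different times fell largely into different clusters, although the members were left out of the genes used for clustering. In Gli1+ cells of uninjured tendon clusters 1 (led by C7, Inmt, Gdf10 and Gsn) and 13 (Chodl, Angptl7, Chad and Coch) held 28.0 and 27.8%. At 7 dpi cluster 3 (Klk1, H19, Mest and Ptn) held 59.9%. In Gli1- cells cluster 5 (Grm8, Hsd11b1, Rtn1 and Ccl11) held 50.9% of uninjured and cluster 0 (H19, Ptn, Mest and Postn) 68.7% of 7 dpi cells. At 21 dpi cluster 4, with the tenocyte genes Tnmd, Kera, Thbs4 and Fmod, held 27.1% of the Gli1+ cells and cluster 6 (Sfrp4, Cxcl13 and Ccl8) 24.9% of the Gli1- cells.

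Most clusters found mainly after injury had higher shares of members than the main clusters of uninjured tendon. In the Gli1+ 7 dpi library it was 1.48% in cluster 3, 1.66% in cluster 15 (Crabp1, Prss35 and Kif26b) and 1.63% in cluster 22 (Scx, Kera and Chodl). In the Gli1- 7 dpi library it was 1.48% in cluster 0. At 21 dpi the share was 1.60% in cluster 4 of both sorts, 1.68 and 1.62% in cluster 10 (Saa3, Grem1, Mmp13 and Il11), and 1.49 and 1.43% in the cartilage and bone-like cluster 21 (Col2a1, Snorc and Bglap). In uninjured tendon (Gli1+, then Gli1-) it was 1.09% in cluster 1 of both sorts, 0.961 and 0.955% in cluster 5, 1.04 and 1.28% in cluster 13 and 1.16 and 0.996% in cluster 14. Cluster 7 was highest there, at 1.24 and 1.43%, and its 57 Gli1- cells were at the level of cluster 21, its 262 Gli1+ cells below it. Clusters 3, 15 and 22 also held transcripts of epidermal genes: the mean log2 ratio of 6 suprabasal epidermal markers over all other cells was 0.65, 0.30 and 0.90, against -2.80, -3.78 and -2.65 in clusters 1, 5 and 13. For the basal epidermal markers it was below 0 in all of these, at -0.98, -1.07 and -0.49, against -4.50, -4.65 and -3.84. Epidermal-like cells were 18.4% of that library, and the part of their RNA in the shares of these clusters was not tested.

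Within clusters, the differences were smaller than over mesenchymal-like cells as a whole in Gli1- cells at both times and in Gli1+ cells at 21 dpi. Clusters 27 and 32 were the only ones with at least 50 Gli1+ cells both without injury and at 7 dpi. There the differences were not smaller, with shares of 0.832 and then 1.33% in cluster 27 and of 1.01 and then 1.45% in cluster 32. In cluster 1 the log2 ratio was 0.19 in Gli1+ cells at 21 dpi, and 0.20 and 0.12 in Gli1- cells at 7 and 21 dpi. Past the fold upward in cluster 1 were 5, 6 and 0 members, where 10.8, 14.7 and 13.6% of all genes were, and downward 2, 3 and 0, where 13.7, 12.6 and 10.6% were. In cluster 5 of the Gli1- sort it was 0.22 at 7 dpi and 0.03 at 21 dpi, with 12 and 2 members past the fold upward, where 14 and 16.9% of all genes were, and 1 and 9 downward, where 13.2 and 18.4% were. In cluster 7, a tendon stem cell-like cluster (Sema3e, Cyp2f2, Pcolce2 and Myoc), it was 0.16 in Gli1+ cells at 21 dpi, and -0.07 and -0.03 in Gli1- cells. There 6, 4 and 0 members were past the fold upward, where 16.2, 20.6 and 19.6% of all genes were, and 2, 9 and 10 downward, where 18, 24.2 and 23.8% were.

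In the other clusters with at least 50 cells at both times, cluster 13 gave log2 ratios of 0.33 in Gli1+ cells at 21 dpi and of 0.24 and -0.03 in Gli1- cells, and cluster 14 (Dpp4 and Efemp1) 0.06 and 0.08 in Gli1- cells. Cluster 27 (Unc13c and Grin2b) gave 0.68 and 0.40 and cluster 32 (Luzp2 and Msln) 0.53 and 0.42 in Gli1+ cells. The counts of members past the fold in clusters 1, 5 and 7 were thus under the background upward and downward, although the share over mesenchymal-like cells as a whole was higher by 0.50 to 0.55 on the log2 scale. The background takes in all genes of at least 5 CPM, whereas 76 of the 90 members had a mean of at least 50 CPM. Some of these clusters were shallow, with 653776 UMIs in the Gli1- cells of cluster 7 without injury. The part of depth and level in these counts was not tested. Clusters 1, 5 and 7 held 14, 11 and 2 Gli1+ cells at 7 dpi and gave no value there. Members past the fold were not counted in clusters 27 and 32. A difference between clusters that each belong mainly to 1 library cannot be told apart from a difference between libraries.

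**Figure D4:**
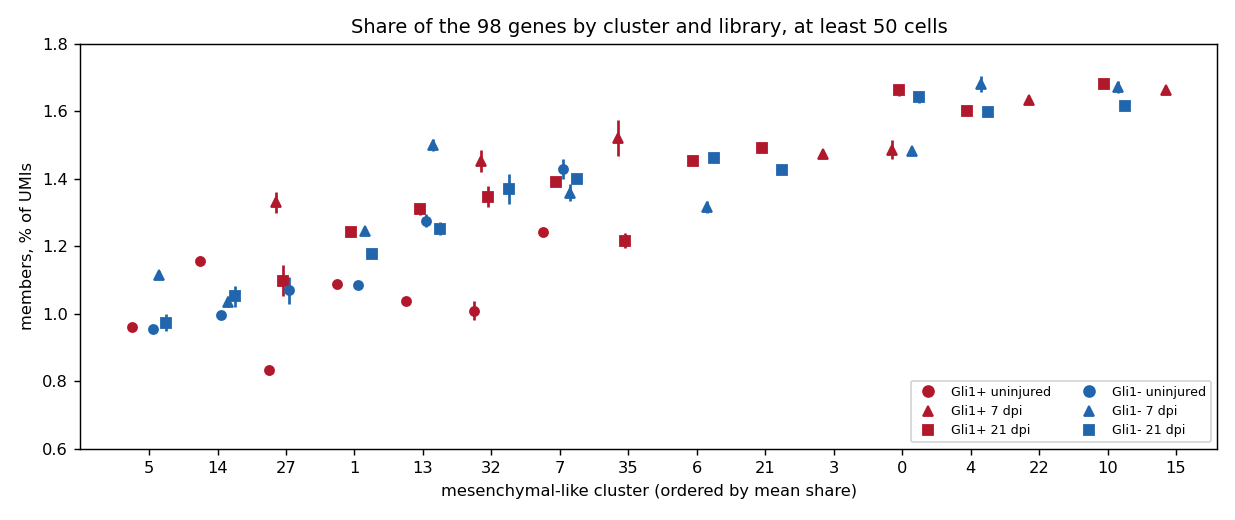
Summed share of UMIs (%) of the 98 genes in each mesenchymal-like cluster (x axis, ordered by mean share) and library with at least 50 cells, with 95% counting intervals; the y axis begins above 0, colour gives the sort and symbol the time. Cluster 5 in uninjured tendon, at 0.961 and 0.955%, lies low and cluster 10 at 21 dpi, at 1.68 and 1.62%, high, while cluster 7 of uninjured tendon reaches 1.43%.

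Apart from the 52 skeletal muscle-like barcodes, epidermal-like and mural-like cells had the highest shares among types. Epidermal-like cells were at 1.81, 2.03 and 2.18% in the Gli1+ libraries and at 2.16% in the Gli1- library of 21 dpi. Mural-like cells, pericytes and smooth muscle by their markers, were at 1.38, 1.81 and 1.81% and at 1.71, 1.89 and 1.78%. Blood endothelial-like cells were at 1.14, 1.52 and 1.41% and at 1.32, 1.45 and 1.46%. Schwann-like cells of the Gli1- sort were at 1.28, 1.43 and 1.20%, and lymphatic endothelial-like cells at 1.30, 1.798 and 1.39%. In every library with both, epidermal-like cells came before mural-like cells and these before mesenchymal-like cells, with intervals that did not overlap. Further down the order several neighbours had overlapping intervals: mesenchymal and blood endothelial-like cells in both libraries of 7 dpi, blood endothelial, lymphatic endothelial and Schwann-like cells in the Gli1- uninjured library, blood endothelial and Schwann-like cells in the Gli1+ library of 21 dpi and in the Gli1- library of 7 dpi, and Schwann and satellite-like cells in both libraries of 21 dpi.

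Over mesenchymal-like cells of the same library, the share in mural-like cells was higher by 0.35, 0.23 and 0.25 on the log2 scale (Gli1+) and by 0.74, 0.37 and 0.25 (Gli1-). Past the fold upward were 24, 6 and 11 members, where 24.2, 16.9 and 17.3% of all genes were, and 56, 13 and 9 in the Gli1- libraries, where 21.7, 15.5 and 16.8% were. In epidermal-like cells the ratio was 0.74, 0.40 and 0.52 in the Gli1+ libraries and 0.52 in the Gli1- library of 21 dpi. There 51, 19, 40 and 43 members were past the fold upward, where 26.8, 17.1, 23.8 and 31.1% of all genes were. The distance to mesenchymal-like cells was largest in uninjured tendon, for mural-like cells in both sorts and for epidermal-like cells in the Gli1+ sort.

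The difference over uninjured tendon was smaller outside mesenchymal-like cells, above all in the Gli1- sort. In blood endothelial-like cells the log2 ratio of the share was 0.42 at 7 dpi and 0.31 at 21 dpi (Gli1+), and 0.13 and 0.14 (Gli1-). In mural-like cells it was 0.39 and 0.39, and 0.14 and 0.06. In epidermal-like cells of the Gli1+ sort it was 0.17 and 0.27, and in Schwann-like cells of the Gli1- sort 0.15 and -0.09. The pooled values of these types depend on their mix of clusters, which differed between times. For mural-like cells of the Gli1- sort the share was 1.34, 1.89 and 1.78% in cluster 11, 1.501, 1.65 and 1.61% in cluster 19 and 1.96, 1.91 and 1.86% in cluster 23. In the Gli1+ sort cluster 19, with 59 of 128 cells the largest without injury, was at 1.66 and then 1.85% at 7 dpi, and cluster 11, with 618 of 720 cells by 21 dpi, had under 50 cells without injury. Blood endothelial-like cells came from clusters 2 (Timp4, Gpihbp1 and Cd36) and 12 (Selp, Sele and Vwf), with 324 and 40 cells, then 60 and 61, then 68 and 203 (Gli1+), and 2735 and 144, then 620 and 340, then 621 and 1105 (Gli1-). Within cluster 2 the share was 1.16, 1.59 and 1.32% (Gli1+) and 1.32, 1.38 and 1.31% (Gli1-), so that in the Gli1- sort it was not higher at 21 dpi than without injury. In cluster 12 of the Gli1- sort it was 1.34, 1.48 and 1.48%. Lymphatic endothelial-like cells of the Gli1- sort gave 0.47 and 0.10, and satellite-like cells, with 53 to 123 cells, gave 0.46 (Gli1+) and 0.05 (Gli1-) at 21 dpi.

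In blood endothelial-like cells 34, 14, 8 and 4 members were past the fold upward (Gli1+ at 7 and 21 dpi, then Gli1-), where 30.3, 25.6, 23.8 and 22.8% of all genes were, and 5, 5, 3 and 3 downward, where 26.1, 25.4, 16.3 and 21.1% were. In mural-like cells 34, 24, 6 and 4 were past it upward, where 26.3, 23.2, 19.1 and 16.9% of all genes were, and 4, 4, 2 and 2 downward, where 32.4, 33.7, 25.8 and 27% were. In epidermal-like cells of the Gli1+ sort 11 and 9 were past it upward, where 17.4 and 13% of all genes were, and 6 and 4 downward, where 27.9 and 24.9% were. In Schwann-like cells of the Gli1- sort 9 and 1 were past it upward, where 17.5 and 14.9% of all genes were, and 4 and 12 downward, where 22.6 and 21.5% were. Among the types counted here, only the Gli1+ blood endothelial-like cells of 7 dpi and the Gli1+ mural-like cells of both times were above the background upward. The types differed in depth, and the part of depth in these counts was not tested. Members past the fold were not counted in lymphatic endothelial-like and satellite-like cells.

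**Figure D5:**
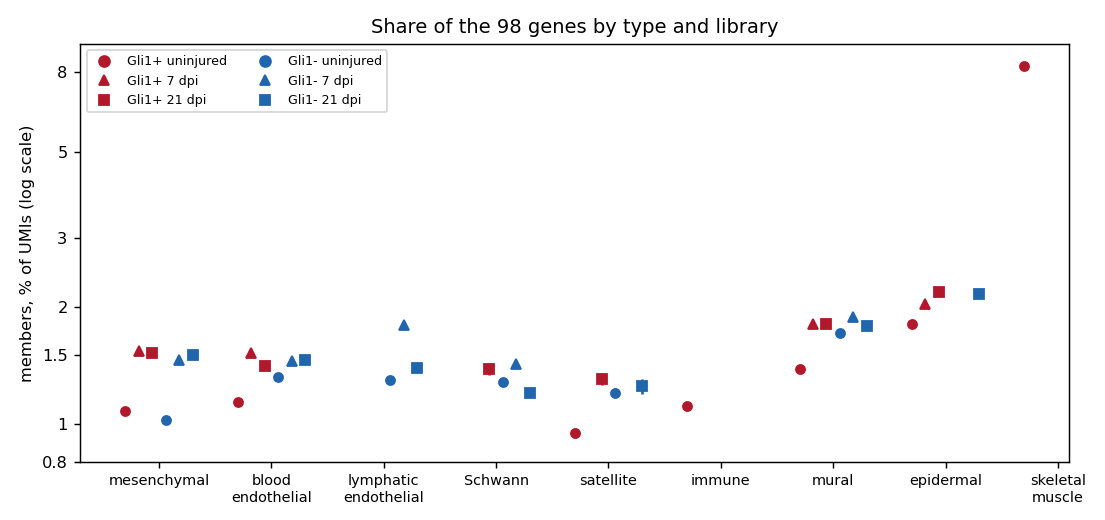
Summed share of UMIs (%) of the 98 genes in each marker-defined type (x axis) and library with at least 50 cells, on a log axis, with 95% counting intervals; colour gives the sort and symbol the time. Skeletal muscle-like barcodes stand at 8.32%, epidermal-like cells at 1.81 to 2.18% and mesenchymal-like cells at 1.03 to 1.54%.

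In mesenchymal-like cells as a whole the sorts differed little within a time, with log2 ratios of the share in Gli1+ over Gli1- cells of 0.08 without injury, 0.08 at 7 dpi and 0.02 by 21 dpi. Over all barcodes the ratios were 0.05, 0.16 and 0.08. Within clusters of uninjured tendon the sorts differed both ways. The Gli1+ sort was lower in cluster 13 (1.04 against 1.28%), cluster 7 (1.24 against 1.43%) and cluster 27 (0.832 against 1.07%). It was higher in cluster 14 (1.16 against 0.996%), and clusters 1 and 5 were near equal. In other types of uninjured tendon the Gli1+ sort was lower, by log2 ratios of -0.31 in mural-like, -0.22 in blood endothelial-like and -0.35 in satellite-like cells. The sorts drew their mural-like cells from different clusters, and in cluster 19, the one mural-like cluster with at least 50 uninjured cells in both sorts, the Gli1+ sort was higher, at 1.66% against 1.501%. In mesenchymal-like cells of uninjured tendon 2 members, Ndufa4l2 and Ndufa1, were past the fold upward, where 17.5% of all genes were, and 0 downward, where 8.16% were. At 7 dpi 0 members were past it either way, where 3.53 and 3.35% of all genes were, and at 21 dpi 0 upward, where 1.49% were, and Cox4i2 alone downward, where 3.27% were. Between 7 and 21 dpi the ratio was -0.02 in Gli1+ and 0.05 in Gli1- cells. In the Gli1+ sort 3 members, Cox4i2, Cox6c and Ndufa6, were past the fold upward, where 8.33% of all genes were, and Atp5o was downward, where 13.8% were. In the Gli1- sort Cox4i2 and Ndufa6 were past it upward, where 8.65% of all genes were, and 0 downward, where 9.93% were. Cox4i2 is given here as a value of under 10 CPM and not as a result, since it passed the minimum only through mural-like cells. In CPM, Ndufa6 was thus near its uninjured level at 21 dpi in both sorts, but it was above that level under TMM scaling, as given above.

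Cells with transcripts of cell cycle genes had more of the members. Mesenchymal-like cells with at least 3 of 6 cycling markers had a share of 1.68% in the Gli1+ library of 7 dpi, against 1.497% in cells with none. The pairs were 1.84 and 1.502% for Gli1+ cells at 21 dpi, 1.64 and 1.39% for Gli1- cells at 7 dpi, and 1.81 and 1.48% for Gli1- cells at 21 dpi. Cycling cells were deeper, with medians of 16778 against 7630 UMIs in the Gli1+ library of 7 dpi, and the part of depth in this was not tested. Cells with no cycling marker were at 1.39 to 1.502% after injury and at 1.07 and 1.02% in uninjured tendon. The lack of a marker goes with depth too, and the part of cycling in the difference over uninjured tendon was not tested.

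Other pathways of energy metabolism did not all move with the members. In mesenchymal-like cells 9, 8, 9 and 8 of 14 glycolysis genes tested were past the fold upward and 3, 2, 2 and 2 downward, with medians of 1.01, 0.67, 1.35 and 1.11. Of all genes 20.5, 13.6, 21.9 and 18.8% were past it upward and 29.6, 30.4, 23.4 and 23.9% downward. Of 16 genes of the tricarboxylic acid cycle and pyruvate dehydrogenase, 2, 1, 1 and 1 were past it upward, and of 13 genes of fatty acid oxidation 4, 2, 3 and 0, with 0 downward in both lists. Of 18 assembly factors of complexes III and IV, 6, 4, 7 and 5 were past it upward and 2, 0, 2 and 0 downward. Of 11 regulators of mitochondrial biogenesis, 1, 1, 1 and 2 were past it upward and 5, 5, 3 and 4 downward. Of 78 mitochondrial ribosomal proteins, 50, 28, 45 and 30 were past it upward and 1, 3, 0 and 1 downward, while of 84 cytosolic ribosomal proteins 20, 8, 7 and 6 were upward and 8, 0, 1 and 0 downward. Glycolysis genes and mitochondrial ribosomal proteins thus had larger shares past the fold than the members, the first in all 4 comparisons and the second in 3 of 4, and the tricarboxylic acid cycle did not exceed the background of all genes.

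The limit of 5% mitochondrial UMIs bears on the share. Barcodes just above it, at 5 to 6%, had 1.18, 1.26 and 1.30% from members (Gli1+) and 1.40, 1.48 and 1.23% (Gli1-), and those just below, at 4 to 5%, 1.31, 1.54 and 1.60% and 1.35, 1.504 and 1.496%. The share was lower above the limit in 5 of the 6 libraries, with Gli1- uninjured tendon as the exception. At 6 to 10% uninjured tendon was instead the highest of each sort, with 1.17, 0.894 and 0.807% (Gli1+) and 1.55, 1.21 and 0.692% (Gli1-), and at 5 to 6% the Gli1- library of 21 dpi was already below the uninjured one. The higher share after injury was thus not found in every range of mitochondrial UMIs, and barcodes over 10% were not examined by range.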

How the data were processed

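Sorted Gli1+ and Gli1- cells of mouse Achilles tendon were profiled by 10x Chromium 3′ v3 single-cell RNA-seq, 1 library per condition. The deposited matrices hold raw UMI counts per gene and barcode, not normalised. According to the labels, the authors aligned reads to mm10 with STAR in Cell Ranger 3.1.0, whereas the file headers name Cell Ranger 9.0.0, so the version is uncertain. Every column was used (0 left out), with groups taken from the sample titles and labels.

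Barcodes with at most 5% mitochondrial UMIs were kept. Shares and CPM were computed from summed counts per library and cell type. Clusters came from scanpy 1.11.5 and leidenalg 0.10.2 (Python 3.11.15) with 2000 variable genes, 30 components, 20 neighbours and resolution 1, leaving out members, compared lists and markers. Clusters were named from fixed markers, with limits set after the clusters were seen. Most types needed a mean log2 of 1.5, a gap of 1 and 3 raised markers. Clusters in which no other class reached 1.5 were named mesenchymal-like with at least 50 CPM of Pdgfra and 1000 CPM of Col1a1. Types with under 50 cells in a library were not used. Doublets were removed only in an alternative (Scrublet). Fold changes are log2 ratios of CPM for genes with a mean of at least 5 CPM, called past 0.58. With 1 library per condition no test was run: intervals are exact 95% Poisson or binomial ones and cover counting error only. The scripts were tested on simulated data. TMM factors came from edgeR 4.0.16 (R 4.3.3).

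Named genes were all members of the paired families, Cycs, the Sdh genes, the 3 subunits of each complex with the highest mean CPM, and the 5 largest differences each way in mesenchymal-like cells. Others were named after their values were seen. Members, lists and tests were chosen with earlier results of these data known. UMI counts come from 3′ ends and were not scaled by length, so levels are compared between genes only as shares of a family.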

Additional observations from a re-analysis of the deposited data

How the results depend on the processing

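No paired analysis was run: the labels number no replicates, each condition is 1 library, and a fit with the sort as a block, which takes the sorts of a time as replicates, was left out. No condition can lose its 1 library. All 60 recomputed log2 ratios of the summed share stayed above 0. Values are for Gli1+ cells at 7 and 21 dpi, then Gli1- cells at 7 and 21 dpi. Over all barcodes the ratio was 0.80, 0.88, 0.62 and 0.70 with TMM factors. It was 0.52, 0.38, 0.32 and 0.31 as a mean over cells, 0.47, 0.44, 0.43 and 0.50 without ribosomal protein, mitochondrial, Malat1 and Neat1 UMIs in the denominator, 0.35, 0.35, 0.25 and 0.30 per UMIs of genes of at most 20 kb, 0.45, 0.40, 0.33 and 0.33 with no mitochondrial limit, and 0.51, 0.48, 0.39 and 0.44 with all filters of the methods and Scrublet. In mesenchymal-like cells the same settings gave 0.81, 0.96, 0.62 and 0.74 (TMM), 0.53, 0.44, 0.44 and 0.44 (mean over cells), 0.53, 0.51, 0.54 and 0.60 (denominator), 0.35, 0.33, 0.39 and 0.42 (20 kb), 0.45, 0.41, 0.48 and 0.48 (no limit) and, for Gli1- cells at 21 dpi, 0.55 (filters). Placing cells by their own markers gave 0.53, 0.50 and 0.50 in the first 3, clustering each sort alone 0.44, 0.45, 0.48 and 0.53, and cells of 5000 to 15000 UMIs 0.54, 0.47, 0.53 and 0.55. The count of members past the fold upward was 61 and 78 in Gli1+ cells under TMM, where 30.7 and 31.4% of all genes were, and 21, 10, 17 and 18 per UMIs of genes of at most 20 kb, where 16.1, 9.48, 18.0 and 14.98% were. TMM factors moved the median of all genes to 0.16, 0.22, 0.07 and 0.10. The 20 kb and depth settings were chosen after the data were seen. With no limit the cells were clustered and named anew, which gave 2433, 8922 and 10845 (Gli1+) and 4164, 10474 and 10168 (Gli1-) mesenchymal-like cells. Of 455 recomputed values of named genes that were past the fold, 0 reversed and 61 were no longer past it. Below the fold, Ndufs1, Sdha, Ndufa6 and Ndufb4 changed sign under TMM in the comparisons named beside them. Cox6a1, Ndufa1, Ndufaf5, Ndufaf6 and Ndufaf7 also changed sign under it in at least 1 comparison. Per UMIs of genes of at most 20 kb, members such as Ndufa2, Cox5b, Cox6c, Cox8a and Cox7a2l fell below 0 in at least 1 comparison where they were above 0 in CPM. The causes were not tested. Depth limits most the 8 members under 5 CPM and the types with few cells, such as the 52 skeletal muscle-like barcodes.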
